A study of Mus musculus with 22 samples.

Results

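The data described here are the transcript levels of 6 genes of mouse salivary and lacrimal glands, Mucl2, Smr2, Pip, Aqp5, Lpo and Ltf, in medullary epithelial cells (MECs) of the thymus. The 6 genes were taken as the probes whose single symbol in the array's annotation was one of these names. Each had 1 probe, so 6 of the 19752 genes measured are described. They were selected on their role as secretory gland products and targets in Sjogren-like disease and on measured values, the difference between Aire-deficient and wild-type cells on these arrays, which was already known. For that reason their genotype difference in vehicle-treated cells is given as a description, without a test. The same genotype difference was tested in the drug-treated arrays, which that contrast does not hold but which measure the same trait. Each drug was also compared with DMSO, and those comparisons share the DMSO arrays with which the genes were chosen.

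All mice were C57Bl/6, and the genotypes were Aire+/+ (WT) and Aire-/- (KO). Each genotype was given DMSO, the vehicle, or Etopo, Topo or both agents (EtopoTopo). These abbreviations commonly stand for etoposide and topotecan, inhibitors of type II topoisomerases and of topoisomerase I. The 22 arrays made 8 groups, with 2 arrays each for KO Etopo and KO EtopoTopo and 3 each for the others. Mice were 6 weeks old, except 7 arrays of mice 4 weeks old, namely WT DMSO 3, WT Etopo 3 and every EtopoTopo array of either genotype. The WT EtopoTopo arrays 1 and 2 are EtopoTopo by title while their treatment label gives Etopo only, and 3 arrays (WT DMSO 1, WT Etopo 2 and WT Topo 2) were labelled male. Cells were sorted as live, CD45-negative, low for Ly51 and high for MHC class II, and total RNA was hybridised to Affymetrix whole-transcript arrays. No label tells if RNA of 1 mouse or of several went onto an array. The p-values therefore cover the variation among arrays, some of which may be technical.

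Aire is a transcriptional regulator through which MECs make small amounts of many proteins otherwise confined to single organs, so that developing T cells can meet them in the thymus. Mice and people without Aire develop inflammation in several organs, and the salivary and lacrimal glands are among those commonly affected. Saliva and tears are made by acinar cells, which secrete mucins, other proteins and water, and by duct cells, which modify the fluid. Among the genes described, Mucl2 (also Spt1, salivary protein 1) encodes a mucin-like secreted protein of the mouse salivary gland. Smr2 (also MSG2) is an androgen-regulated product of the submandibular gland. Pip, the prolactin-induced protein, is secreted into saliva, tears and apocrine fluids. Aqp5 is the water channel of the apical membrane of acinar cells. Lpo, lactoperoxidase, and Ltf, lactoferrin, are antimicrobial proteins of saliva, tears and milk. Lactoferrin is an iron-binding protein that is also stored in the granules of neutrophils.

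The promoter sequences show how unlike the start sites of these genes are, although all 6 genes had lower values in KO than in WT vehicle-treated cells. Shown are Mucl2, Smr2 and Ltf, the 3 genes with the largest differences, and Aqp5, which differs most in base composition. Each runs from 250 bases before to 50 bases after the RefSeq transcription start (GRCm38.p6), 5′ to 3′ on the gene's strand, with every CG dinucleotide in capitals. The Mucl2 promoter is at chr15:103899263-103899562 on the minus strand, that of Smr2 at chr5:88086306-88086605 on the plus strand, that of Ltf at chr9:111019042-111019341 on the plus strand and that of Aqp5 at chr15:99590778-99591077 on the plus strand.
Mucl2: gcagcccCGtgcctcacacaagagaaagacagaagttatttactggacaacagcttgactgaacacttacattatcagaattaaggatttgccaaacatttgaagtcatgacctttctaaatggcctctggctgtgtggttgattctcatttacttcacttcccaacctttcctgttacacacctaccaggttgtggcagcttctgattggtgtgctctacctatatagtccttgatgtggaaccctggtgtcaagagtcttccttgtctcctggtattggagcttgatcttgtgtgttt
Smr2: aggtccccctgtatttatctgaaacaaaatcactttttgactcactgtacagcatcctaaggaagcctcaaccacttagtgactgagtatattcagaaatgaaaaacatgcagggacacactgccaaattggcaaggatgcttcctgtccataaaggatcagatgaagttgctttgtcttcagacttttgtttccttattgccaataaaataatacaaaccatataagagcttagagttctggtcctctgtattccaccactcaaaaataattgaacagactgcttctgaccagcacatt
Ltf: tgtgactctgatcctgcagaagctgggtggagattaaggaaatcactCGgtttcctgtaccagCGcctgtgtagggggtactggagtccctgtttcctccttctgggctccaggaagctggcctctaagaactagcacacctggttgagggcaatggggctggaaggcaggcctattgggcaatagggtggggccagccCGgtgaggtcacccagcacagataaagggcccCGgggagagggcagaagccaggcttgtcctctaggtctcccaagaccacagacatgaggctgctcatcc
Aqp5: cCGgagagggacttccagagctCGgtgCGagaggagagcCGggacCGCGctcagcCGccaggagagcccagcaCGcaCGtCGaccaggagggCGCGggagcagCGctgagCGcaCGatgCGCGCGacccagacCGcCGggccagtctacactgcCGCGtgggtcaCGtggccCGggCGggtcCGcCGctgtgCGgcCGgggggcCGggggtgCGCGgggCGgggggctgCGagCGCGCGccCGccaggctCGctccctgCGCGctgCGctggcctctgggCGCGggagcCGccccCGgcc

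The Smr2 sequence has 0 CG dinucleotides, that of Mucl2 has 1, that of Ltf has 4 and that of Aqp5 has 46. The promoters of Pip and Lpo, not printed, have 2 each. The median over the 32851 RefSeq promoters of this length was 7, and 98.4% of them have fewer than that of Aqp5. The GC content was 79.7% for Aqp5 and 58.7% for Ltf, and 38.0% to 44.0% for the other 4, against a median of 52.7%. The letters TATAAA or TATATA, searched on both strands, occur in the promoter of Pip, which has both, and of Mucl2, which has TATATA. They occur in 13.6% and 5.67% of all promoters, and the 2 motifs can overlap. The other 4 windows hold neither string.

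Vehicle-treated cells are the baseline for Aire dependence. In the WT DMSO arrays Mucl2 read 11.37, 11.18 and 11.20 on the log2 intensity scale, and in the KO DMSO arrays 4.81, 4.98 and 4.62. The 2 groups lay far apart, with a KO minus WT difference of -6.44 ± 0.20 (SE of the limma fit, n = 3 and 3). Ltf read 8.70, 8.997 and 8.81 in WT and 7.11, 7.27 and 7.19 in KO, a difference of -1.64 ± 0.17, or 3.12-fold. Smr2 read 6.54, 6.26 and 6.13 in WT and 5.06, 4.92 and 4.90 in KO, a difference of -1.35 ± 0.25. These RNAs came from sorted bulk populations, in which fewer cells of a type and less RNA per cell cannot be told apart.

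The remaining 3 genes differed by less. Aqp5 read 8.23, 8.96 and 8.35 in WT against 8.10, 8.15 and 8.12 in KO, a difference of -0.39 ± 0.17. Lpo read 11.40, 11.38 and 11.31 in WT against 10.72, 11.17 and 11.06 in KO, a difference of -0.38 ± 0.17. Pip read 5.56, 5.30 and 5.12 in WT against 5.04, 4.97 and 5.05 in KO, a difference of -0.31 ± 0.14. In all 6 genes every KO DMSO array was below every WT DMSO array, a pattern that 18.2% of all genes showed in this direction. Because the genes were chosen with this contrast known, nothing is read from that count. For Aqp5 and Pip the gap between the lowest WT and the highest KO array was small, 8.23 against 8.15 and 5.12 against 5.05.

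**Figure D1:**
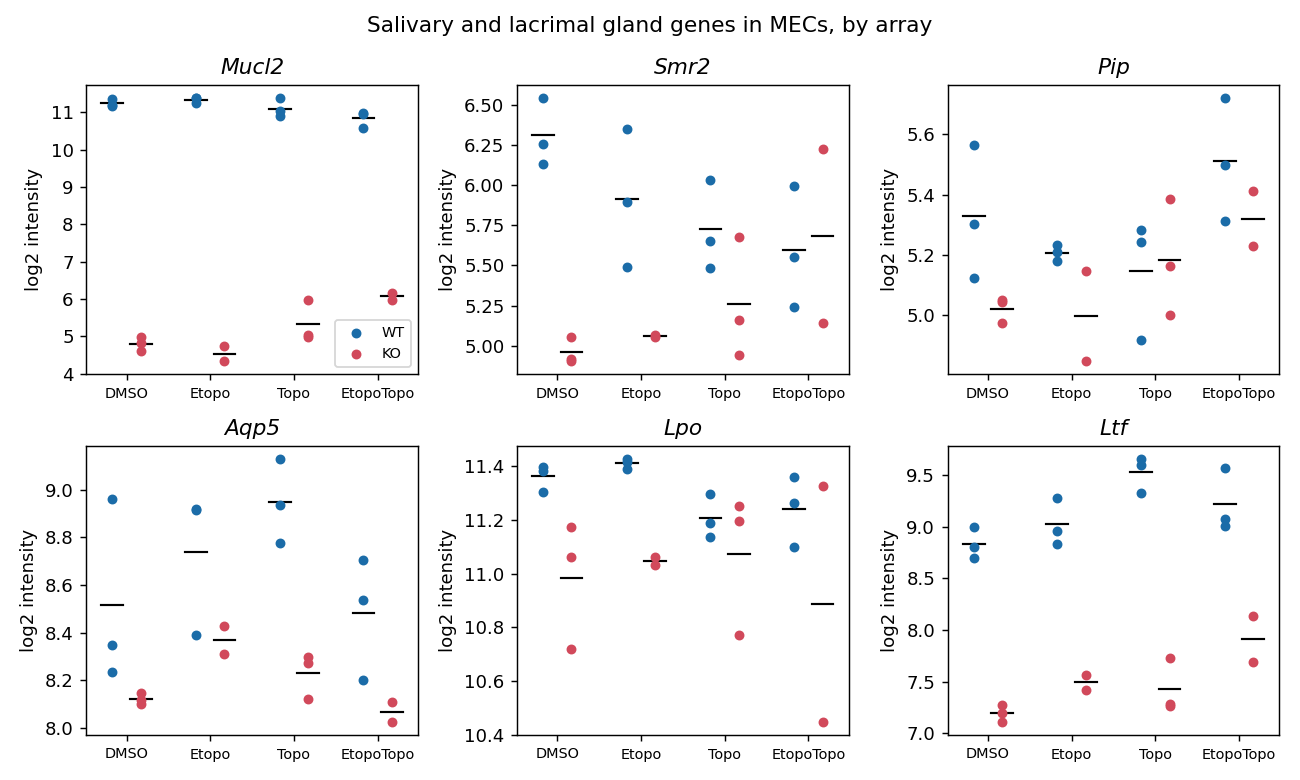
Log2 intensity of each gene (vertical axes, scaled separately) on the 22 arrays, by treatment (horizontal axes) and genotype (WT blue, KO red); points are arrays and black bars are group means of 3 arrays (2 for KO Etopo and KO EtopoTopo). Mucl2 lies at 10.58 to 11.39 on every WT array and at 4.34 to 6.17 on every KO array, Ltf also separates the genotypes, and in each of the other 4 genes the genotypes overlap under at least 1 treatment.

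Mucl2 separated the genotypes under every treatment. Over the 12 WT arrays it ran from 10.58 to 11.39 with a median of 11.19, and over the 10 KO arrays from 4.34 to 6.17 with a median of 4.98. Under Etopo the WT arrays read 11.38, 11.39 and 11.26 and the KO arrays 4.34 and 4.74, a difference of -6.80 ± 0.22 (adjusted p = 1.15e-14, limma). Under Topo the WT arrays read 10.90, 11.38 and 11.03 and the KO arrays 5.98, 4.98 and 5.03, a difference of -5.77 ± 0.20 (adjusted p = 1.7e-14, limma). Under EtopoTopo the WT arrays read 10.58, 10.97 and 10.97 and the KO arrays 5.99 and 6.17, a difference of -4.76 ± 0.22 (adjusted p = 8.76e-12, limma). Ordered by group mean, the 4 WT groups overlapped their neighbours (Etopo, DMSO, Topo, EtopoTopo from high to low), while KO EtopoTopo, KO Topo and KO DMSO each lay without overlap below the group before them and KO Etopo overlapped KO DMSO. Nothing is read from the order of the KO groups, which lie at the low end of the arrays.

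As a gauge of the low end, the 1179 olfactory and vomeronasal receptor genes on the array had a median between 5.13 and 5.99 on the KO arrays, and between 5.13 and 5.17 on the KO DMSO arrays. Mucl2, Smr2 and Pip all read below those medians on the KO DMSO arrays. Their true level there may be lower still, so no fold is given for these 3 genes and their log2 differences are those of measured intensities. On WT DMSO 1, 2 and 3 the receptor medians were 5.04, 5.40 and 5.29 and the 95th percentiles 6.81, 7.32 and 7.16. Pip read below the median on WT DMSO 2 and 3, and Smr2 read below the 95th percentile on every WT DMSO array. Neither gene thus stood clear of the low end in WT vehicle-treated cells. With 16 added to every intensity before log2, the vehicle difference of Mucl2 was -5.80 and that of Smr2 was -1.02.

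Ltf, the iron-binding protein, was also lower in KO under each treatment. Its 12 WT arrays ran from 8.70 to 9.66 with a median of 9.04, and its 10 KO arrays from 7.11 to 8.13 with a median of 7.35, so no KO array reached any WT array. Under Etopo it read 9.28, 8.84 and 8.96 in WT and 7.56 and 7.42 in KO, a difference of -1.54 ± 0.19 (2.90-fold, adjusted p = 5.03e-06, limma). Under Topo it read 9.66, 9.33 and 9.60 in WT and 7.28, 7.26 and 7.73 in KO, a difference of -2.11 ± 0.17 (4.30-fold, adjusted p = 1.51e-08, limma). Under EtopoTopo it read 9.57, 9.07 and 9.01 in WT and 8.13 and 7.69 in KO, a difference of -1.31 ± 0.19 (2.47-fold, adjusted p = 6.7e-05, limma). The widest gap was thus the one under Topo, where WT was at its highest.

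Neutrophils also make Ltf, so a list of 11 other neutrophil transcripts was set beside it. Under DMSO 8 of the 11 were called lower in KO and 0 higher, where 12% of all genes were called lower. The median difference was -0.86. Their summed intensity was 5194 to 6572 on WT DMSO arrays and 1799 to 2343 on KO DMSO arrays, and no marker read 0. Ngp, a neutrophil granule protein, was lower in KO by 3.67 ± 0.23 on the log2 scale (adjusted p = 9.18e-11, limma), and Mpo, myeloperoxidase, differed by -3.10 ± 0.16 (adjusted p = 4.49e-12, limma). The sort removed cells with CD45, which neutrophils carry. In WT the summed neutrophil intensity was 5071 to 5298 under Etopo, 3811 to 4233 under Topo and 3176 to 3756 under EtopoTopo. The WT group means of Ltf were 8.83 under DMSO, 9.03 under Etopo, 9.53 under Topo and 9.22 under EtopoTopo. The part of neutrophil transcripts in the Ltf values was not tested.

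Aqp5, the water channel, was called lower in KO under Topo alone among the 3 drug treatments. It read 9.13, 8.78 and 8.94 in WT and 8.12, 8.27 and 8.30 in KO, a difference of -0.72 ± 0.17 (1.64-fold, adjusted p = 0.00588, limma), and the groups did not overlap. Under Etopo the difference was -0.37 ± 0.19 (adjusted p = 0.271, limma) and under EtopoTopo it was -0.41 ± 0.19 (adjusted p = 0.201, limma). With array weights the difference under Etopo was called as well (adjusted p = 0.0147, limma). The fit with array weights, also cited below, stopped before convergence. It called 6435 of the 19752 genes in this contrast. The genotype difference under Topo minus that under DMSO was -0.32 ± 0.24. KO arrays of Aqp5 stayed within 8.03 to 8.43, while WT arrays ran from 8.20 to 9.13.

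Smr2, the androgen-regulated gland protein, had no genotype difference past the threshold under a drug, and the value under Etopo lay at the threshold. Under Etopo it read 6.35, 5.49 and 5.90 in WT and 5.07 and 5.06 in KO, a difference of -0.85 ± 0.28 (adjusted p = 0.052, limma). That difference was called in 7 of the 22 fits that left out an array, after quantile normalization (adjusted p = 0.031, limma) and with only the groups compared (adjusted p = 0.0182, limma), among others. Under Topo it read 5.49, 6.03 and 5.65 in WT and 5.68, 4.94 and 5.16 in KO, a difference of -0.47 ± 0.25 (adjusted p = 0.251, limma), called with array weights (adjusted p = 0.000502, limma) and without the KO arrays Topo 1 and EtopoTopo 1 (adjusted p = 0.0363, limma). Under EtopoTopo it read 5.24, 5.55 and 6.00 in WT and 6.23 and 5.14 in KO, a difference of 0.09 ± 0.28 with a 95% interval from -0.50 to 0.67 (adjusted p = 0.888, limma). The sign of that last value was not stable: the difference was -0.46 without KO EtopoTopo 1, -0.09 without WT EtopoTopo 1 and -0.31 without both WT EtopoTopo arrays of conflicting label. By group mean Smr2 ran from 6.31 in WT DMSO to 4.96 in KO DMSO, and every neighbouring pair of groups in the order overlapped. Smr2 responds to androgens in the gland, and the male-labelled arrays read 6.54 (WT DMSO 1), 5.49 (WT Etopo 2) and 6.03 (WT Topo 2), the highest, lowest and highest of their groups.

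Pip and Lpo had no genotype difference past the threshold under a drug. Pip stayed between 4.85 and 5.72 on all 22 arrays, and its KO minus WT differences were -0.21 ± 0.16 under Etopo, 0.04 ± 0.14 under Topo and -0.19 ± 0.16 under EtopoTopo (adjusted p = 0.500, 0.903 and 0.513, limma). Lpo, bright on every array, ran from 11.10 to 11.43 in WT and from 10.45 to 11.33 in KO, with differences of -0.36 ± 0.19, -0.14 ± 0.17 and -0.35 ± 0.19 (adjusted p = 0.274, 0.677 and 0.277, limma). The difference of Lpo under Etopo was called after quantile normalization (-0.45, adjusted p = 0.0356, limma), with only the groups compared (adjusted p = 0.0223, limma), with array weights (adjusted p = 0.00381, limma) and without the KO arrays Topo 1 and EtopoTopo 1 (adjusted p = 0.0419, limma). Under EtopoTopo it was called without KO EtopoTopo 2 (-0.79, adjusted p = 0.00404, limma). The lowest Lpo value, 10.45, was that of KO EtopoTopo 1, and the other KO EtopoTopo array read 11.33. Neighbouring groups overlapped throughout the order of means of both genes.

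Counted over the 6 genes, KO was called lower in 2 under Etopo, 3 under Topo and 2 under EtopoTopo, and higher in 0. Of all genes, 8.07%, 9.62% and 6.12% were called lower in the same contrasts. The median difference of the 6 genes was -0.61, -0.59 and -0.38 in these contrasts, beside all-gene medians of 0.04, -0.04 and 0.03. The arrays of these contrasts are not those of the DMSO contrast, but they measure the same genotype difference for which the genes were chosen.

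**Figure D2:**
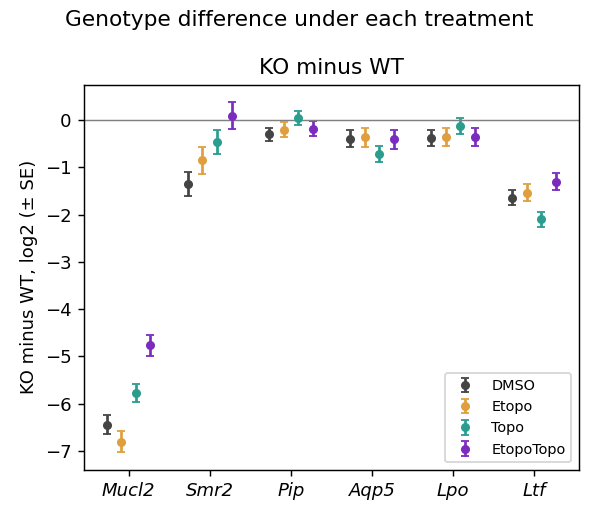
KO minus WT difference on the log2 scale (vertical axis) of each gene (horizontal axis) under DMSO, Etopo, Topo and EtopoTopo; points are fitted differences and bars their SE. Mucl2 lies between -6.80 and -4.76, Ltf between -2.11 and -1.31, and Pip, Aqp5 and Lpo between -0.72 and 0.04.

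Inhibitors of topoisomerases trap these enzymes on DNA, and the drug contrasts ask whether they change the gland genes within a genotype. The genes were chosen on the genotype gap in the DMSO arrays. A KO DMSO mean that was low by that choice favours a rise in KO. A WT DMSO mean that was high by it favours a fall in WT. In WT cells under Topo, Ltf rose by 0.70 ± 0.17 (1.62-fold, 95% interval 0.35 to 1.04, adjusted p = 0.0291, limma), with all 3 Topo arrays (9.33 to 9.66) above all 3 DMSO arrays (8.70 to 8.997). It was the 1 of 6 genes called, where 2.21% of all genes were called and 0.83% were called higher. This call was lost when any one of 4 arrays was left out: the adjusted p was 0.130 and 0.104 on leaving out WT DMSO 1 or WT DMSO 3, and 0.164 and 0.118 on leaving out WT Topo 1 or WT Topo 3. The rise itself was 0.63 to 0.80 when each array was left out in turn. In the same arrays Smr2 differed by -0.59 ± 0.25 (adjusted p = 0.338, limma), Aqp5 by 0.43 ± 0.17 (adjusted p = 0.274, limma) and Mucl2 by -0.14 ± 0.20 (adjusted p = 0.928, limma).

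WT Etopo had 0 of the 6 genes called against DMSO, where 0.00506% of all genes were called by limma and 1097 had an unadjusted p under 0.05. WT EtopoTopo also had 0 of the 6 called, where 10.9% of all genes were called and 5157 had an unadjusted p under 0.05. Under EtopoTopo every WT array of Mucl2 and Smr2 was below every WT DMSO array, and every array of Ltf was above, as was so for 18.5% and 12% of all genes. The differences were -0.41 ± 0.20 for Mucl2 (adjusted p = 0.202, limma), -0.71 ± 0.25 for Smr2 (adjusted p = 0.072, limma) and 0.38 ± 0.17 for Ltf (adjusted p = 0.147, limma). For Mucl2 the 95% interval reached from -0.82 to 0.01. All WT EtopoTopo arrays came from mice 4 weeks old and 2 of the 3 WT DMSO arrays from mice 6 weeks old.

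In KO cells Etopo and Topo had 0 of the 6 genes called, where 0% and 1.03% of all genes were called by limma and 707 and 2298 had an unadjusted p under 0.05. Under EtopoTopo, Mucl2 rose by 1.27 ± 0.22 (adjusted p = 0.00269, limma) and Ltf by 0.72 ± 0.19 (1.65-fold, adjusted p = 0.0149, limma). Smr2 differed by 0.73 ± 0.28 (adjusted p = 0.0642, limma). These p-values rest on the KO DMSO arrays with which the genes were chosen, so they are no independent evidence. The 2 of 6 genes called, Mucl2 and Ltf, stand beside 22.8% of all genes called in this contrast and 11.1% called higher. That background is itself unstable. Of all genes 4513 were called, against 5 with age as a covariate, 0 with only the groups compared, 0 with array weights, 68 without KO EtopoTopo 1 and 9170 without KO EtopoTopo 2. Both KO EtopoTopo arrays came from mice 4 weeks old and all 3 KO DMSO arrays from mice 6 weeks old, so within KO the age and the treatment cannot be told apart. With age as a covariate over all groups the difference of Mucl2 was 1.38 (adjusted p = 0.101, limma) and that of Ltf was 0.79 (adjusted p = 0.173, limma), neither called. Both ages occur only within WT DMSO and WT Etopo, with 1 array of 4 weeks in each, so the age term rests on WT arrays. The SE of Mucl2 was 0.32 in that fit, against 0.22 without age.

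The low end of the KO EtopoTopo arrays was raised as well. The median of the receptor genes was 5.99 on KO EtopoTopo 1 and 5.39 on KO EtopoTopo 2, against 5.13 to 5.17 on the KO DMSO arrays, and their median change in this contrast was 0.50. The 10th to 90th percentiles of all genes spanned 3.60 on KO EtopoTopo 1 and 4.07 to 4.71 on the other arrays. After quantile normalization of the arrays the rise of Mucl2 was 0.93 (adjusted p = 0.0116, limma). Without KO EtopoTopo 1 and KO Topo 1, the 2 KO arrays with the highest receptor medians, it was 1.37 (adjusted p = 0.00488, limma), with 1 array left in the group and assumed to vary like the others. The rise of Ltf was 0.50 without them (adjusted p = 0.264, limma), no longer called.

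**Figure D3:**
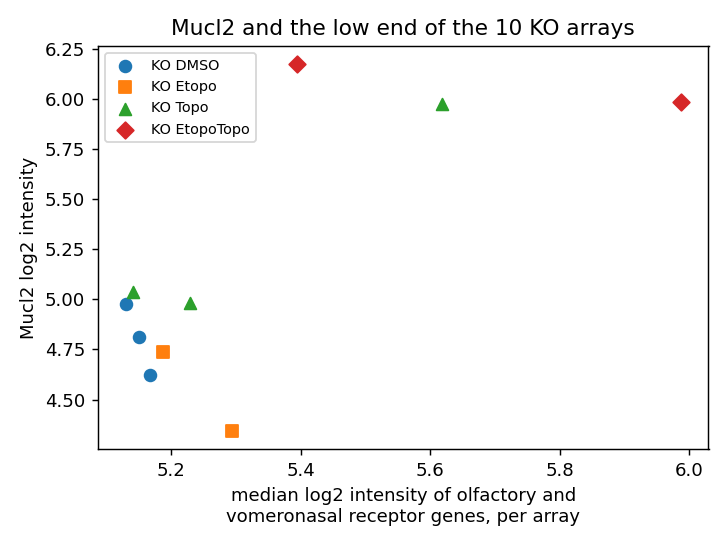
Log2 intensity of Mucl2 (vertical axis) against the median log2 intensity of the 1179 receptor genes (horizontal axis) on each of the 10 KO arrays, with a symbol for each treatment. Both KO EtopoTopo arrays (5.99 and 6.17) and KO Topo 1 (5.98) read about 6 for Mucl2, and these 3 arrays also have the highest receptor medians, 5.39 to 5.99.

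The difference between genotypes in the response to a drug is the KO change minus the WT change. It contains the genotype difference under DMSO on which the genes were chosen, so for these genes it is given as a description, without a p. For EtopoTopo it was 1.68 ± 0.30 for Mucl2 and 1.44 ± 0.38 for Smr2. Both genes had lower means in WT under EtopoTopo than under DMSO and higher means in KO. When each array was left out in turn, the value ran from 1.55 to 1.77 for Mucl2 and from 0.90 (without KO EtopoTopo 1) to 1.98 (without KO EtopoTopo 2) for Smr2. With array weights the values were 1.59 ± 0.37 for Mucl2 and 1.21 ± 0.45 for Smr2. Without both WT EtopoTopo arrays whose treatment label gives Etopo only, they were 1.55 and 1.04. In the fit over all genes, 2.46% passed the threshold for EtopoTopo and 2.35% did so with a higher KO change, while 0% and 0.0759% did so in either direction for Etopo and Topo, where 907 and 936 genes had an unadjusted p under 0.05 (limma).

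**Figure D4:**
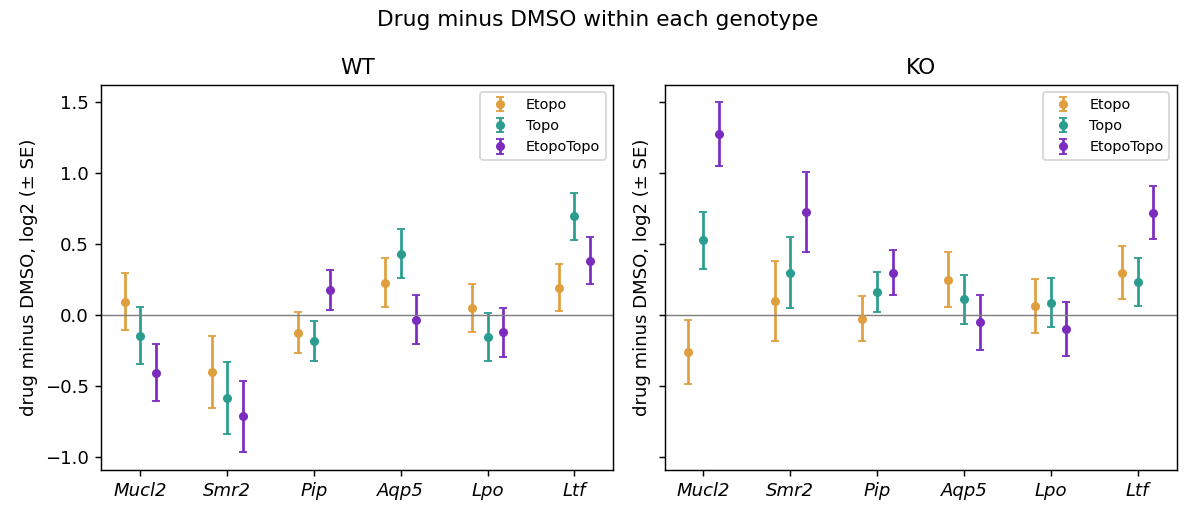
Drug minus DMSO difference on the log2 scale (vertical axes) of each gene (horizontal axes) within WT (left) and KO (right); points are fitted differences and bars their SE. Mucl2 under EtopoTopo lies at -0.41 in WT and 1.27 in KO, and the differences of Pip, Aqp5 and Lpo all lie between -0.18 and 0.43.

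Over the 6 drug contrasts, Pip ranged from -0.18 to 0.30, Aqp5 from -0.05 to 0.43 and Lpo from -0.15 to 0.09, and none of these was called (lowest adjusted p = 0.154, 0.274 and 0.696, limma). Ltf was the 1 of the 6 genes whose mean was above DMSO in all 6 contrasts, from 0.19 to 0.72, and 2 of these were called. The contrasts within a genotype share their DMSO arrays, so they are not independent. The share of all genes with this pattern was not counted.

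Other products of the same glands were set beside the 6 genes. The lists used here were also chosen with earlier results of these data known. Most list genes named have the largest differences under DMSO, so their p-values for that contrast are no independent evidence. Of 29 measured salivary gland products, 23 were called lower in KO under DMSO and 0 higher, where 12% of all genes were called lower. The median difference was -1.47, beside -0.01 over all genes. Bpifa2, the parotid secretory protein, differed by -3.60 ± 0.21 (adjusted p = 4.26e-11, limma), and Klk1b22, a glandular kallikrein, by -3.12 ± 0.21 (adjusted p = 4.41e-10, limma). Dcpp3, a demilune cell and parotid protein, differed by -3.08 ± 0.22 (adjusted p = 1.29e-09, limma), and the lipocalin Lcn11 by -2.69 ± 0.19 (adjusted p = 9.06e-10, limma). These 4 have the largest differences of the list. Mucl2 differed by more than each of them, and Smr2 (-1.35) lay near the list's median, but the 6 genes were chosen with this contrast known. Under Etopo, Topo and EtopoTopo, 21, 20 and 12 of the 29 were called lower in KO, beside 8.07%, 9.62% and 6.12% of all genes. Under EtopoTopo, where 4.32% of all genes were called higher, 1 of the 29 was, Car6, the carbonic anhydrase of saliva (0.69 ± 0.19, adjusted p = 0.0228, limma). Car6 was named after its value was seen.

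In WT cells 8 of the 29 salivary products fell under EtopoTopo and 0 rose, where 7.28% of all genes were called lower, and the median change was -0.39. That count of 8 was 3 with age as a covariate, 2 without both WT EtopoTopo arrays of conflicting label, 3 without WT DMSO 1, 5 without WT DMSO 2 and 4 without WT EtopoTopo 1. Under Topo 4 fell and 0 rose, where 1.38% of all genes were called lower, with a median of -0.02. That count of 4 was 0 without WT Topo 1, 1 without WT DMSO 1, WT DMSO 3 or WT Topo 3, and 2 without WT Topo 2, with age as a covariate or with median centring. Lcn11 fell by 1.00 ± 0.19 under Topo (adjusted p = 0.00688, limma) and fell by 1.22 ± 0.19 under EtopoTopo (adjusted p = 0.000318, limma). Dcpp3 fell by 0.89 ± 0.22 under EtopoTopo (adjusted p = 0.0136, limma), while Bpifa2 differed by -0.27 ± 0.21 (adjusted p = 0.449, limma). In KO cells 8 of the 29 rose under EtopoTopo and 0 fell, where 11.1% of all genes were called higher, with a median change of 0.47 beside 0.50 for the receptor genes. That count was 0 with age as a covariate, with only the groups compared, with array weights and without KO EtopoTopo 1, and it was 11 without KO EtopoTopo 2.

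Of 17 measured lacrimal and Harderian gland products, 10 were called lower in KO under DMSO and 0 higher, with a median of -0.83. The share of all genes called lower was 12%. The secretoglobin Scgb2b27 differed by -2.70 ± 0.21 (adjusted p = 4.21e-09, limma) and Sval1, a seminal vesicle antigen-like gene near Pip, by -1.62 ± 0.22 (adjusted p = 8.85e-06, limma). Pigr, the receptor that carries IgA into secretions, differed by -1.26 ± 0.19 (adjusted p = 3.58e-05, limma). Under Topo and EtopoTopo it rose in WT cells, by 0.94 ± 0.19 (adjusted p = 0.00914, limma) and 0.91 ± 0.19 (adjusted p = 0.00338, limma), as Ltf did under Topo. Obp1a, an odorant-binding protein of the lacrimal gland known as an autoantigen in Aire-deficient mice and named for that reason, differed by -1.02 ± 0.15 under DMSO (adjusted p = 4.02e-05, limma) and by -0.10 ± 0.17 under EtopoTopo (adjusted p = 0.785, limma).

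The mucosal antimicrobial proteins, the class to which Lpo and Ltf belong, were called lower in KO under DMSO in 16 of 18 and higher in 0, with a median of -1.04. Under Topo it was 14 of 18 lower, with a median of -0.83. Of all genes, 12% were called lower and 7.4% higher under DMSO, and 9.62% lower under Topo. Defb4, a defensin, differed by -2.58 ± 0.24 (adjusted p = 4.51e-08, limma) under DMSO, and Reg3b, a secreted lectin, by -2.40 ± 0.32 (adjusted p = 8.33e-06, limma). In WT cells 2 of the 18 rose and 0 fell under Topo, where 0.83% of all genes were called higher. Under EtopoTopo 4 rose and 1 fell, where 3.6% of all genes were called higher and 7.28% lower. The median change of the list was 0.11 under Topo and -0.13 under EtopoTopo. The 2 rises under Topo became 0 without WT DMSO 3 or WT Topo 1, and 8 with array weights. The 4 under EtopoTopo became 0 without both WT EtopoTopo arrays of conflicting label, 2 without WT EtopoTopo 2 and 7 with array weights. Of the haem peroxidases related to Lpo, 3 of 6 were lower in KO under DMSO and 1 was higher, beside 12% and 7.4% of all genes. Mpo and Epx, the peroxidases of neutrophil and eosinophil granules, differed by -3.10 ± 0.16 and -1.84 ± 0.14 (adjusted p = 4.49e-12 and 4.23e-09, limma), where Lpo differed by -0.38. Of 4 measured relatives of Ltf in the transferrin family, 1 was lower and 1 higher, beside the same shares. Transferrin itself, Trf, differed by -0.13 ± 0.28 (adjusted p = 0.834, limma).

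Among the 11 other aquaporins 7 were called lower in KO under DMSO and 0 higher, with a median of -0.65, a larger difference than the -0.39 of Aqp5. Of all genes, 12% were called lower and 7.4% higher in this contrast. Aqp1 and Aqp3, water channels of many epithelia, differed by -1.41 ± 0.15 and -0.99 ± 0.15 (adjusted p = 5.07e-07 and 6.49e-05, limma). Of the genes of the secretory machinery and of gland cell identity 6 of 25 were called lower and 1 higher, beside the same shares. Their median was -0.18. Foxi1, a regulator of ion-transporting cells, differed by -1.48 ± 0.14 (adjusted p = 8.61e-08, limma) and Slc12a2, the chloride importer of acinar cells, by -0.59 ± 0.19 (adjusted p = 0.0285, limma). Of 10 measured autoantigens of Sjogren's disease that all tissues make, 2 were lower under DMSO and 0 higher, with a median of 0.00. Under Topo 0 were called, where 9.62% of all genes were called lower and 5.37% higher.

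**Figure D5:**
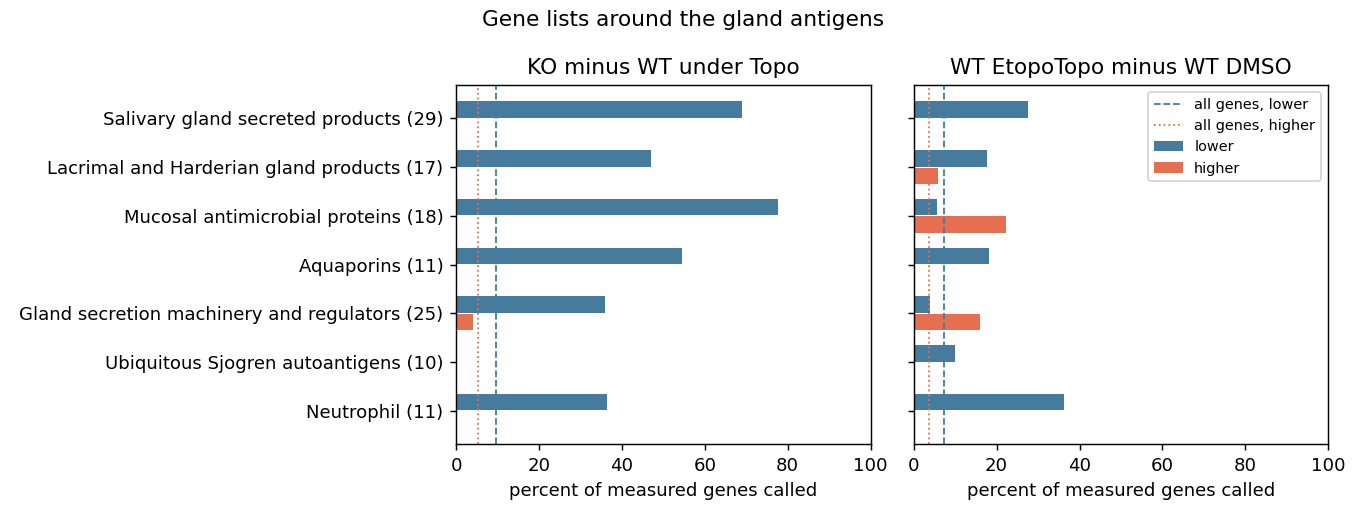
Percent of the measured genes of each list (number in brackets) called lower or higher (horizontal axes) in KO against WT under Topo (left) and in WT EtopoTopo against WT DMSO (right); dashed and dotted lines are the shares of all genes, 9.62% lower and 5.37% higher on the left and 7.28% lower and 3.6% higher on the right. On the left 20 of 29 salivary products and 14 of 18 antimicrobial genes are lower and 0 of 10 ubiquitous autoantigens; on the right 8 of 29 salivary products are lower and 4 of 18 antimicrobial genes higher.

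Chromosomal neighbours of the 6 genes are in part gland genes themselves, and some shared the lower KO value under DMSO. Beside Smr2 lie Smr3a and Prol1, genes of related salivary proteins, which differed by -0.73 ± 0.16 and -1.33 ± 0.23 (adjusted p = 0.00233 and 0.0002, limma), and Amtn, which encodes an enamel protein and differed by -4.23 ± 0.23 (adjusted p = 1.16e-11, limma). Cabs1, on the same side as Smr3a, differed by -0.15 ± 0.15 (adjusted p = 0.581, limma). Around Lpo, Mpo and Epx were lower as given above, while Tspoap1 was higher in KO by 0.41 ± 0.12 (adjusted p = 0.0152, limma) and Mks1 differed by 0.12 ± 0.14 (adjusted p = 0.674, limma). Of the 4 measured genes around Ltf, 2 on each side, 0 were called. Beside Mucl2, the mucin-like gene Glycam1 differed by -0.83 ± 0.19 (adjusted p = 0.00241, limma) and Ppp1r1a by 0.06 ± 0.12 (adjusted p = 0.793, limma). Beside Aqp5, Aqp6 differed by -0.82 ± 0.17 (adjusted p = 0.0012, limma), and the other 3 measured neighbours were not called. Beside Pip, Kel and Sval1 were lower by 1.30 and 1.62 (adjusted p = 3.67e-08 and 8.85e-06, limma) and Sval2 differed by 0.10 ± 0.20 (adjusted p = 0.811, limma). Under Topo, Prol1, Amtn, Mpo, Epx, Kel and Sval1 were still called lower in KO. Smr3a, Glycam1 and Aqp6 were not, with differences of 0.04, -0.36 and -0.20 (adjusted p = 0.905, 0.230 and 0.496, limma). Faim2, beside Aqp5, was called lower under Topo only (-0.45, adjusted p = 0.0345, limma).

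The genes with the pattern most like each of the 6 were found by Pearson's r of log2 intensity over the 22 arrays, which share the genotype difference, so a high r mostly orders genes by it. Nearest to Mucl2 were Bpifa2, Ly6a2 and Ptgds (r = 0.992, 0.990 and 0.990), and nearest to Ltf were Vnn3, Slc5a1 and Prss32 (r = 0.978, 0.968 and 0.967). For Smr2 they were Ms4a2, Ptx4 and Slc6a11 (r = 0.925, 0.921 and 0.918), and for Aqp5 they were Aqp9, Sftpd and Ankrd23 (r = 0.923, 0.894 and 0.886). Lpo was nearest to Agpat2, Chga and Elovl1 (r = 0.902, 0.896 and 0.894) and Pip to Prl2c1, Cyp2b9 and Krtap13 (r = 0.830, 0.828 and 0.825). Among the 6 genes themselves r ran from 0.93 between Mucl2 and Ltf to -0.03 between Pip and Aqp5.

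As checks on the cells, 1 of 11 MEC markers was called higher in KO against WT under DMSO, where 7.4% of all genes were, and 0 were called lower. It was Cd80, higher by 0.44 ± 0.12 (adjusted p = 0.00969, limma). The Aire transcript read 11.27 to 12.44 on WT arrays and 11.43 to 12.96 on KO arrays, a difference of 0.60 ± 0.25 under DMSO (adjusted p = 0.101, limma). Its value averages probes along the transcript and does not check the deletion. Of 8 acinar and duct cell markers 3 were lower in KO and 0 higher, with summed intensities of 2124 to 2330 on WT DMSO and 1781 to 2001 on KO DMSO arrays. Of 8 macrophage and dendritic cell markers 3 were lower and 1 higher. In this contrast 12% of all genes were called lower and 7.4% higher. Thymocyte transcripts (8 measured, 0 called) were highest on KO DMSO 1 (4477) and WT DMSO 1 (3357), against 1189 to 2315 on the other arrays. Without both arrays the rise of Ltf in WT Topo was 0.63 (adjusted p = 0.134, limma) and that of Mucl2 in KO EtopoTopo was 1.28. All 5 tuft cell markers rose in WT under Topo and under EtopoTopo (median changes 0.90 and 1.23), where 0.83% and 3.6% of all genes were called higher. Their summed intensities were 7491 to 8711 and 8714 to 9840, against 3832 to 4735 under DMSO. Their part in the Ltf values was not tested.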

How the data were processed

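RNA of sorted MECs was measured on 22 arrays in 8 groups taken from the sample titles. The deposited values were linear probe intensities, made with RMA and Affymetrix Power Tools per the submitters' processing notes, which give no version. Log2 was taken here of the deposited intensity values, with no pseudocount. Of 24922 probes, 21425 had 1 symbol in the platform annotation, 1399 had several and 2098 had none, and the last 2 kinds were left out. The brightest probe stood for each gene, which left 19752. Differences were fitted in R 4.3.3 with limma 3.58.1 and data.table (version 1.17.8), by lmFit with a mean for each group across the 22 arrays, then eBayes (7.22 prior and 14 residual degrees of freedom), adjusted by Benjamini-Hochberg over all genes and called at an adjusted p under 0.05. The script was tested on simulated data.

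Genes were named by a rule: the 6 genes, the 4 of each list with the largest KO minus WT difference under DMSO, the 3 most like each gene by r, its 2 nearest measured genes on each side, and Aire; exceptions are stated. The 6 genes and the lists were chosen with earlier results of these data known. Promoter sequences came from RefSeq (GRCm38.p6), which held 6 of 6. The number of arrays limits the precision. Replicate numbers recur across groups, but of 71 same-numbered pairs 25 had deviations correlated above 0.1, so arrays were not paired. The alternatives tried were 13 settings and the omission of each of the 22 arrays.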

Additional observations from a re-analysis of the deposited data

Results flagged for a closer look

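The change under EtopoTopo in KO minus that in WT was largest for Mucl2 and Smr2 among the 6 genes. It was 1.68 ± 0.30 for Mucl2, from a WT difference of -0.41 and a KO difference of 1.27. For Smr2 it was 1.44 ± 0.38, from a WT difference of -0.71 and a KO difference of 0.73. Both values contain the genotype difference under DMSO on which the genes were chosen, so they are a description and no independent evidence. That of Smr2 was 1.14 after quantile normalization, 1.37 with median centring and 1.10 with a pseudocount of 16. Of all genes, 2.35% were called in this direction. The median change of the receptor genes at the low end of the arrays was 0.31 in WT and 0.50 in KO under the same treatment. Its part in these values was not tested.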

How the results depend on the processing

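Of the 420 counts of called genes among the 6 under an alternative, 370 stayed within 1.5 times the count given. Many of the 420 belong to contrasts with 0 called, or to fits that left out an array outside the groups compared. The 370 is therefore no measure of robustness. Under Etopo the KO minus WT count of 2 became 4 after quantile normalization, 4 with only the groups compared, 5 with array weights (whose fit stopped before convergence) and 4 without both KO arrays of raised low values, and it was 2 to 3 when each array was left out. Under Topo it was 3 to 3 and under EtopoTopo 2 to 3, and 1 with array weights under EtopoTopo. The WT Topo count of 1 became 0 with age as a covariate, 3 with array weights and 0 without both DMSO arrays rich in thymocyte transcripts, and was 0 to 2 with an array left out, the 2 being without WT DMSO 2. The WT EtopoTopo count of 0 became 2 after quantile normalization, 1 with only the groups compared, 1 with array weights and 2 without both raised KO arrays, and was 0 to 1 with an array left out. The KO EtopoTopo count of 2 became 0 with only the groups compared, 0 with age as a covariate, 0 with array weights and 1 without both raised KO arrays, and was 1 (without KO EtopoTopo 1) to 4 (without KO EtopoTopo 2) with an array left out. Counts for the change in KO minus that in WT are among the 420. They contain the genotype difference under DMSO on which the genes were chosen, so they are not listed. The other contrasts with 0 of the 6 called kept 0 under every alternative.

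Some small differences changed sign. Smr2 in KO against WT under EtopoTopo became -0.011 after quantile normalization, -0.029 with array weights, -0.31 without the arrays of conflicting label and -0.46 without both raised KO arrays, and ran from -0.46 to 0.63 with an array left out. Pip under Topo became -0.064 without both raised KO arrays and ran from -0.078 to 0.13. Lpo under Topo became 0.021 with array weights and 0.016 without both raised KO arrays and ran from -0.22 to 0.016. Lpo under EtopoTopo became 0.086 without both raised KO arrays and ran from -0.79 to 0.086. The cause was not tested.

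The rise of Mucl2 in KO EtopoTopo had an adjusted p of 0.0702 with only the groups compared, 0.101 with age and 0.140 with array weights (limma). Arrays sharing a replicate number did not deviate together (median r = -0.05, 9 of 22 arrays closest to their own number). With the replicate block that rise was 1.23 (adjusted p = 0.0057, limma) and that of Ltf in WT Topo had an adjusted p of 0.0302 (limma). The replicate block changed no count of called genes among the 6. Counts of the lists did change: under EtopoTopo 6 rather than 8 salivary products rose in KO, and 9 rather than 8 fell in WT. The settings without 2 thymocyte-rich or 2 raised arrays were chosen after seeing the data. A filter on group means of at least 6 removed Pip.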
